A study of Mus musculus with 18 samples.

Results

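Quadriceps muscles of ACVR2B/Fc-injected Dysf-/- mice were compared with quadriceps muscles of ACVR2B/Fc-injected wt mice, 3 arrays in each group and 6 of the 18 arrays of the series, chosen by their genotype and treatment labels alone. All mice were males of 10 weeks of age on a C57BL/6 background. Both groups had received ACVR2B/Fc, a soluble activin type IIB receptor whose ligand-binding domain is fused to a mouse Fc domain, at 10 mg per kg (200 µg) into the peritoneum, with 4 weekly injections that began at 6 weeks. By their labels the groups therefore differed in the dysferlin gene (Dysf) and shared the inhibitor. The other 12 arrays came from Dysf-/- and wt mice with no treatment, and from F66;Dysf-/- and F66 mice, which carry a follistatin transgene driven by a myosin light chain promoter on the Y chromosome. F66;Dysf-/- and F66 males were produced in the same matings, whereas no shared litter is described for Dysf-/- and wt mice, and the arrays of injected mice have no group injected with vehicle beside them. Within the injected comparison, dysferlin loss and any other difference between the lines of mice therefore cannot be told apart. RNA of whole muscle was read on exon arrays, and each value is the log2 of a normalised intensity, so that a difference of 1 is a 2-fold difference. One row stood for each of 20259 genes.

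Dysferlin is a membrane-anchored protein of muscle fibres that takes part in resealing tears of the plasma membrane, and its loss in humans causes limb-girdle muscular dystrophy and Miyoshi myopathy. Myostatin, activins and related ligands hold back muscle growth through activin type II receptors, and a soluble receptor such as ACVR2B/Fc binds these ligands in the circulation and lets muscle grow. The comparison asks which transcripts differ with dysferlin when that growth signal is removed pharmacologically in both genotypes.

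The targeted gene was checked first. Dysf read 7.10, 6.95 and 7.05 in the 3 injected Dysf-/- arrays, against 8.70, 8.55 and 8.66 in the 3 injected wt arrays, a difference of -1.60 on the log2 scale (SE 0.069, adjusted p = 5.37e-09, limma). The difference had the same direction and a similar size in untreated mice (-1.71), and every array lay on the side its label gives. The value in the Dysf-/- arrays stayed above 5.35, the median over all rows of the array, and whether the probes of this row lie within the deleted part of the gene is not given in the sources used here. Genes that mark muscle fibres were the brightest of the lists examined, with means of 12.44 to 12.49 over 21 genes in the injected Dysf-/- arrays and of 12.4 to 12.51 in the injected wt arrays. Within a genotype the injected arrays correlated at 0.9704 to 0.9725 over all rows, and between genotypes at 0.9666 to 0.9721.

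Across the 20259 genes, 387 (1.91%) differed between the injected genotypes at an adjusted p below 0.05 (limma fitted on all 18 arrays, Benjamini-Hochberg). Of these, 269 were higher (1.33% of all genes tested) and 118 lower (0.582%) in injected Dysf-/- muscle, 25 and 5 of them by more than 2-fold. At an unadjusted p below 0.05 in the same fit there were 2752 genes, 1461 higher and 1291 lower, beside 1013 expected by chance. In all 387 the 3 arrays of one genotype lay outside the range of the other, as they did in 16.3% of all genes tested. The count rested on the spread shared by the 6 groups: fitted on the 6 injected arrays alone it was 65, of which 59 were among the 387, and the methods' t-test called 0 genes after adjustment, with 2018 at an unadjusted p below 0.05. Of 111 called genes examined one by one, mostly chosen for a large difference or a small p, 67 kept their call without any one of the 6 injected arrays. Among the 111, more calls were lost without arrays 1 and 3 of the injected wt group (39 and 33) and arrays 2 and 3 of the injected Dysf-/- group (37 and 38). Fewer were lost without array 2 of the injected wt group (19) and array 1 of the injected Dysf-/- group (8). Over all 387, 164 kept their call without array 2 of the injected Dysf-/- group and 311 without array 1 of it, beside 74 and 103 of the 111. Where a named call was lost in this way, the highest adjusted p without a single array is given as such. The methods call the 3 arrays of a group biological replicates, while neither they nor the labels say how many animals each array stands for.

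Many genes of macrophages and monocytes rose in injected Dysf-/- muscle. Of 31 measured genes of this list, 18 were higher (58.1%, beside 1.33% of all genes tested) and 0 lower, and the median difference was 0.556, beside 0.0053 over all genes tested. Mpeg1, a pore-forming protein of phagocytes, read 6.76, 7.17 and 7.43 in injected Dysf-/- arrays, against 5.09, 5.67 and 5.23 in injected wt arrays. The lowest Dysf-/- array lay more than 1 log2 unit above the highest wt array, and the difference was 1.79 (SE 0.15, 3.46-fold, adjusted p = 2.16e-05). Cd68, a protein of macrophage lysosomes, was more scattered, with 7.79, 8.04 and 8.58 in injected Dysf-/- and 6.75, 7.34 and 6.50 in injected wt arrays, and rose by 1.27 (adjusted p = 0.0048). Adgre1, which encodes the macrophage surface antigen F4/80, rose by 1.02, and Csf1r, the receptor that macrophages need for survival, by 0.67. Gpnmb and Lgals3, both abundant in lipid-laden and phagocytosing macrophages, rose by 1.50 and 1.09. Mrc1, a mannose receptor of resident and alternatively activated macrophages, gave 7.11, 7.42 and 7.38 in injected Dysf-/- arrays and 6.82, 6.96 and 7.11 in injected wt arrays and did not pass the test (adjusted p = 0.185), and Cd163, a haemoglobin scavenger receptor of resident macrophages, differed by 0.01 (adjusted p = 0.975). In whole muscle, more cells of a type and more RNA per cell cannot be told apart. Adgre1, Csf1r, Mrc1 and Cd163 were singled out after their values were seen, as were the genes named below as such.

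**Figure D1:**
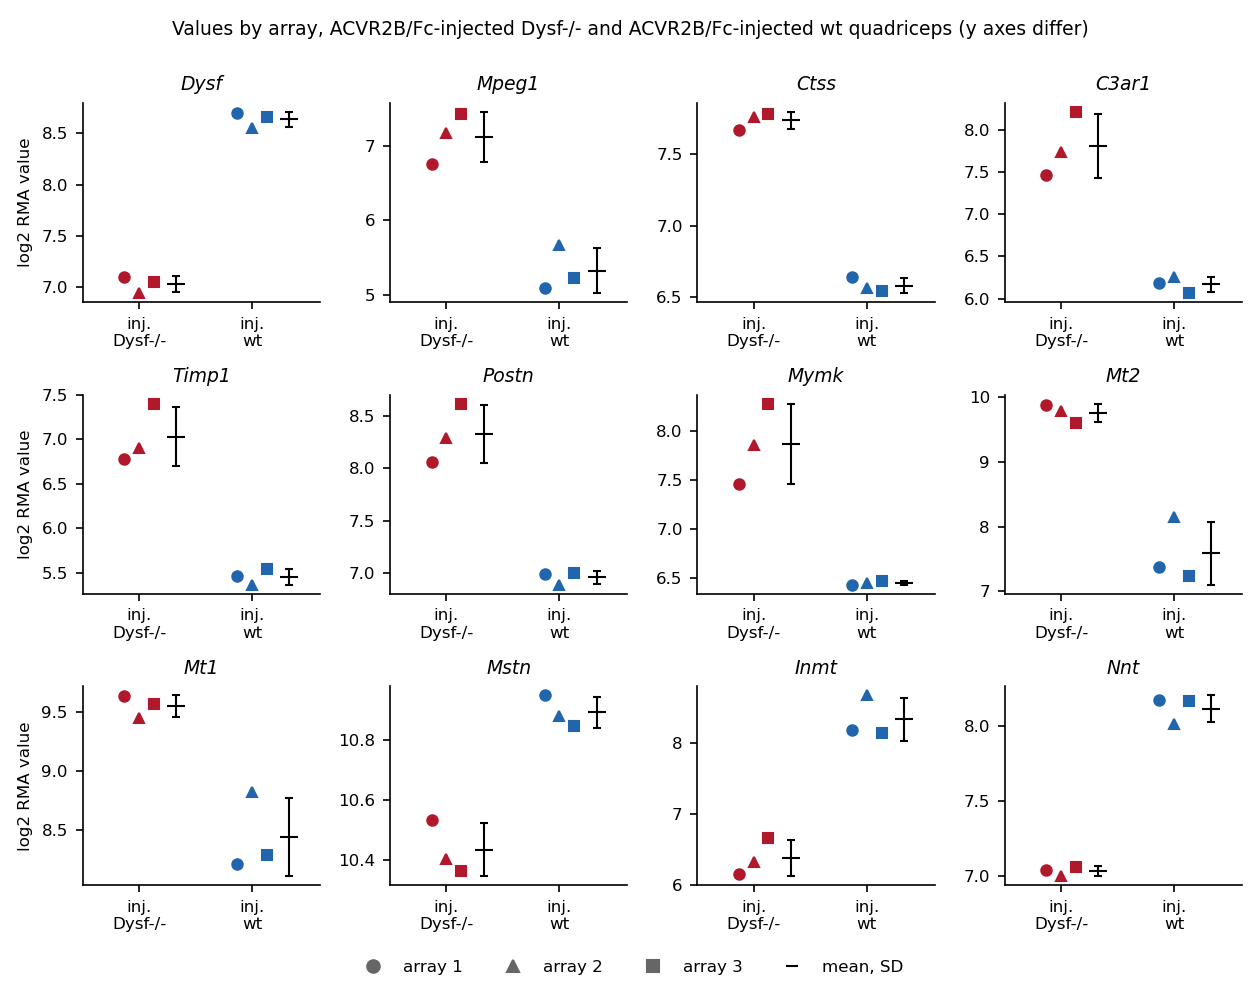
Log2 RMA values of 12 genes on each array of ACVR2B/Fc-injected Dysf-/- (red, left) and ACVR2B/Fc-injected wt (blue, right) quadriceps; symbols mark arrays 1 to 3 of each group and the bar gives the mean and SD (n = 3). The groups do not overlap for any of the 12 genes, as for all 387 called genes and 16.3% of all genes tested. The largest separation of means among the 12 is that of Mt2 (2.18), and y axes differ between panels.

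Some of the receptors and adaptors by which phagocytes recognise opsonised material rose too. Of 18 measured genes of Fc receptors and DAP12 signalling, 6 were higher (33.3%, beside 1.33% of all genes tested) and 0 lower (median 0.359). Fcer1g, the common signalling chain of activating Fc receptors, read 7.62, 7.89 and 7.82 in injected Dysf-/- arrays, against 6.54, 6.77 and 6.81 in injected wt arrays, a rise of 1.06 (adjusted p = 4.06e-05). Tyrobp, the DAP12 adaptor, rose by 0.91, its partner receptor Trem2 by 0.70, and the immunoglobulin receptor Fcgr3 by 0.67. Among the 16 measured entries of the complement list, 6 were higher (37.5%, beside the same 1.33%) and 0 lower (median 0.351), led by C3ar1, the receptor for the complement fragment C3a. The entry for C3 was matched through a synonym to Olfr48, an olfactory receptor gene, so C3 itself is not among the 16. Olfr48 is not one of the 6, but it enters the median. C3ar1 read 7.46, 7.73 and 8.21 in injected Dysf-/- arrays, against 6.18, 6.25 and 6.07 in injected wt arrays (difference 1.63, SE 0.14, adjusted p = 1.58e-05). Itgb2, the β chain of the complement receptor CR3, rose by 0.93, and its α chain Itgam by 0.64 (highest adjusted p without a single array 0.0785). C1qb, a chain of the recognition protein of the classical pathway, rose by 1.01. The list includes genes that macrophages make, and C1qb, C1qc, Itgam and Trem2 also stand on the macrophage list, so these counts are not independent. The complement count was 3 without arrays 1 or 3 of the injected wt group or arrays 2 or 3 of the injected Dysf-/- group, and 6 and 8 without the others.

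Several genes of antigen presentation and the phagosome rose, and none fell. Of 11 measured genes of MHC class II presentation, 4 rose (36.4%, beside 1.33% of all genes tested) and 0 fell. The 4 were Cd74 (1.06), the invariant chain, H2-Ab1 (0.95) and H2-Aa (0.91), the chains of the I-A molecule, and Ctss. All 11 differences were above 0, and paralogues of this family share sequence, so that their values are uncertain as single genes. Ctss, a lysosomal protease that trims the invariant chain and also on the macrophage list, had 7.67, 7.76 and 7.78 in injected Dysf-/- arrays and 6.64, 6.57 and 6.54 in injected wt arrays (difference 1.15, SE 0.092, adjusted p = 1.05e-05). Of 25 genes of the lysosome and phagosome, 8 rose (32%, beside the same 1.33%) and 0 fell (median 0.229). Cybb, the catalytic subunit of the phagocyte NADPH oxidase, rose by 1.42, with 6.41, 6.80 and 6.99 in injected Dysf-/- arrays and 5.20, 5.34 and 5.40 in injected wt arrays, and its partner Cyba rose by 0.35 (highest adjusted p without a single array 0.114). Lgmn, an asparaginyl endopeptidase, and Gusb, β-glucuronidase, rose by 0.62 and 0.38. Without single arrays the lysosome count was 3 to 6.

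The promoters of 2 macrophage genes that rose together are shown because they carry the binding core of PU.1, the transcription factor (Spi1) on which macrophage development depends, in the letters GAGGAAGT or its complement on the other strand. Sequences are RefSeq windows of 280 bases on GRCm38.p6, from 250 bases before the start of the gene to 30 after it, and capitals mark the match. Ctss lies at chr3:95526536-95526815 (plus strand), with the match at position -2 counted from the start site, and C1qc, a chain of complement C1q, lies at chr4:136892885-136893164 (minus strand), with the match at position -195.
Ctss: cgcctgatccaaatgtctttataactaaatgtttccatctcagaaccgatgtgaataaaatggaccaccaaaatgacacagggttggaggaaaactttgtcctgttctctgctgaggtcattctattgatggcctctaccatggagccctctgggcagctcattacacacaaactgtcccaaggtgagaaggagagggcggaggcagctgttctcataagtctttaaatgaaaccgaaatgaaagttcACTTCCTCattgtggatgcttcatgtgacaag
C1qc: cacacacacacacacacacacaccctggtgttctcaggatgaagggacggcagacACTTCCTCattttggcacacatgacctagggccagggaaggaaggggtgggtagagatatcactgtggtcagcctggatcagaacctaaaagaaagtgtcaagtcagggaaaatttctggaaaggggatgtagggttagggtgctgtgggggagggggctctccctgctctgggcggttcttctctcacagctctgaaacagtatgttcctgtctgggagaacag
The core was present in the windows of 4 of 14 macrophage genes called higher (28.6%), in those of 15 of 206 genes called higher in all (7.28%) and in those of 493 of 15650 genes tested (3.15%), and in 2.82% of all 32851 windows. The matches are a description of these letters and were not tested, and the log2 difference was 1.15 for Ctss and 0.51 for C1qc (adjusted p = 1.05e-05 and 0.0283). The call of C1qc was lost without 4 of the 6 injected arrays, with a highest adjusted p of 0.139.

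The lists of other leukocytes held few calls. Of 19 genes of T, NK and B cells, 0 were called in limma. At an unadjusted p below 0.05, 2 were higher and 0 lower, beside 1461 and 1291 of all 20259 genes tested. The mean over the list was 5.37 to 5.48 in injected Dysf-/- arrays and 5.37 to 5.44 in injected wt arrays. Of the defining markers, Cd3e and Ms4a1 differed by 0.07 and -0.11. Il7r, the member with the smallest p, differed by 0.60 and did not pass, and 1 member of the list was called on the 6 injected arrays alone. Of 15 neutrophil genes, 1 was higher (6.67%, beside 1.33% of all genes tested): Lcn2, which sequesters bacterial siderophores and is also made by other cells under stress, read 6.45, 6.41 and 6.37 in injected Dysf-/- arrays, against 5.63, 5.76 and 5.67 in injected wt arrays (difference 0.72, adjusted p = 0.00238). S100a9, the defining product of neutrophils on that list, differed by 0.24 (adjusted p = 0.278) and Mpo by -0.02. Of 8 mast cell genes 0 were called, with 1 higher at an unadjusted p below 0.05. Among 30 chemokines and their receptors, 4 rose (13.3%, beside 1.33% of all genes tested) and 0 fell, with 10 higher and 0 lower at an unadjusted p below 0.05. Of the 4, Ccl2 (0.72) and Ccl7 (0.64) are ligands of Ccr2 (0.73), the receptor that carries monocytes into tissue, and Ccl9 (0.91) is a ligand of Ccr1. The calls of Ccl2 and Ccl7 were lost without some single arrays (highest adjusted p 0.0994 and 0.0574). Ccr2 read 5.86, 6.07 and 6.17 in injected Dysf-/- arrays, against 5.32, 5.29 and 5.31 in injected wt arrays. Of 26 interferon response genes, 1 rose (Mx2, 0.27, adjusted p = 0.0341, at most 0.155 without a single array), a share of 3.85% beside the 1.91% of all genes.

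**Figure D2:**
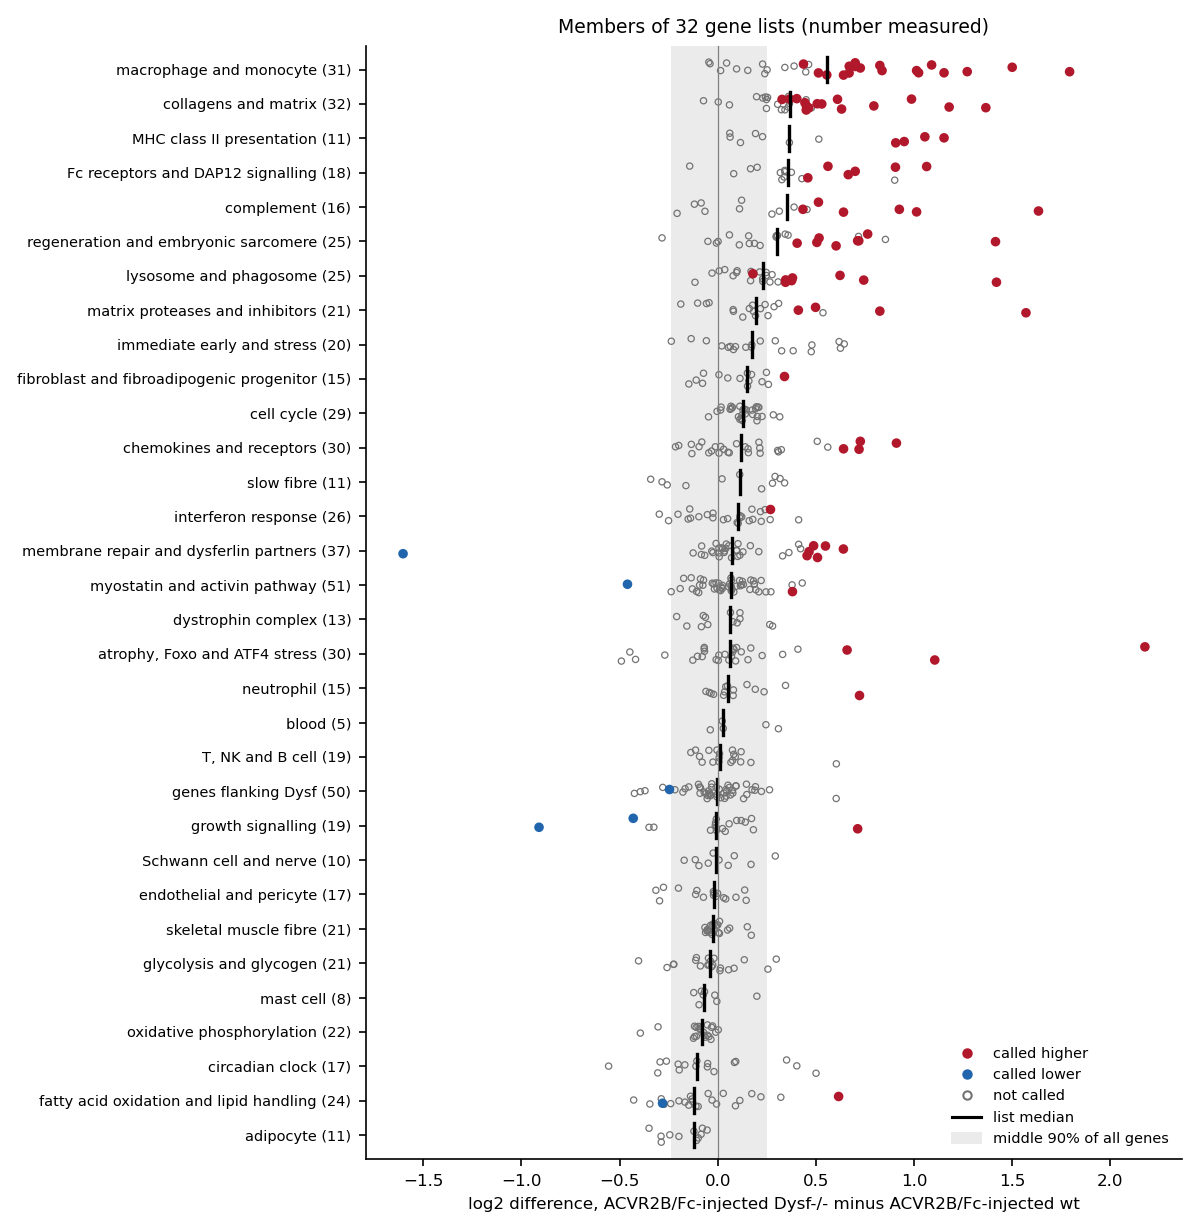
Log2 difference, ACVR2B/Fc-injected Dysf-/- minus ACVR2B/Fc-injected wt, of every measured member of 32 gene lists; filled points passed limma's adjusted p of 0.05 (red higher, blue lower), open points did not, black ticks are list medians, and the grey band is the middle 90% of all genes (-0.24 to 0.25). The macrophage list has the highest median (0.556), and the lists of muscle fibre and oxidative phosphorylation genes lie almost wholly within the band.

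Among the lists, extracellular matrix genes made up the second large group of rises. Of 32 measured collagens and matrix proteins, 15 rose (46.9%, beside 1.33% of all genes tested) and 0 fell, 31 of 32 differences were above 0, and the median was 0.366. Postn, periostin, a matrix protein deposited at sites of injury, read 8.06, 8.29 and 8.62 in injected Dysf-/- arrays, against 6.99, 6.89 and 7.0 in injected wt arrays (difference 1.37, SE 0.12, adjusted p = 3.44e-05). Cilp, a matrix protein of cartilage and fibrotic tissue, gave 7.82, 7.86 and 8.11 in injected Dysf-/- and 6.71, 6.72 and 6.80 in injected wt arrays and rose by 1.18. The cross-linking enzyme Loxl2 rose by 0.46 and thrombospondin 4 (Thbs4) by 0.63. Among genes singled out after their values were seen, fibronectin (Fn1) rose by 0.80 and the fibrillar collagens Col1a1 and Col3a1 by 0.53 and 0.51 (highest adjusted p without a single array 0.148 and 0.0738). Of 21 matrix proteases and inhibitors, 4 rose (19%, beside the same 1.33%) and 0 fell. Timp1, an inhibitor of metalloproteinases, read 6.78, 6.91 and 7.40 in injected Dysf-/- arrays, against 5.46, 5.37 and 5.54 in injected wt arrays (difference 1.57, adjusted p = 3.51e-05). Mmp12, the macrophage elastase, rose by 0.83. Of 15 genes of fibroblasts and fibroadipogenic progenitors 1 passed the test (6.67% higher, beside 1.33% of all genes tested). This was Acta2 (smooth muscle actin, 0.34, adjusted p = 0.0481, at most 0.191 without a single array). Of the defining markers of fibroblasts, Pdgfra and Dpt differed by 0.15 and 0.23 and did not pass. Col1a1 and Col3a1, which also mark fibroblasts but were counted on the matrix list, rose with the limits given above.

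The count of matrix genes depended on single arrays: without array 1 of the injected Dysf-/- group it was 24, and without array 2 of that group or array 1 of the injected wt group it was 7 each, with 8 without array 3 of the injected Dysf-/- group and 9 without array 3 of the injected wt group. Macrophage counts varied from 14 to 19. Fitted on the 6 injected arrays alone, the counts were 8 macrophage and 2 matrix genes, with 3 each for Fc receptor, lysosome and regeneration genes, 2 for complement and 1 for membrane repair. The 3 injected Dysf-/- arrays held a common order in these lists. Array 1 was the lowest of the 3 in 17 of the 18 macrophage genes that rose and in 13 of the 15 matrix genes, and array 3 was the highest in 18 of 18 and in 12 of 15. Over all 269 genes called higher, array 1 was lowest in 195 and array 3 highest in 177. Macrophage list means were 6.55, 6.78 and 6.90 in the injected Dysf-/- arrays, against 6.04, 6.26 and 6.12 in the injected wt arrays, and matrix list means were 7.80, 8.08 and 8.15, against 7.50, 7.61 and 7.60. The levels of the lists thus moved together from array to array, and the part of one in the other was not tested.

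Part of the genes of muscle regeneration and of the embryonic sarcomere rose. Of 25 measured genes, 8 rose (32%, beside 1.33% of all genes tested) and 0 fell, and the median was 0.304. Mymk, myomaker, the membrane protein that fuses myoblasts, read 7.46, 7.86 and 8.28 in injected Dysf-/- arrays, against 6.43, 6.45 and 6.46 in injected wt arrays. The injected wt arrays were within 0.05 of each other and the Dysf-/- arrays, all above them, were spread more widely, with a difference of 1.42 (SE 0.18, adjusted p = 0.000633). Runx1, a transcription factor induced in denervated and damaged fibres, rose by 0.76 with 6.44, 6.54 and 6.53 in injected Dysf-/- and 5.62, 5.85 and 5.75 in injected wt arrays. Tnnt2, the cardiac and embryonic form of troponin T, rose by 0.72 (adjusted p = 3.51e-05) and Igf2, a growth factor of developing and regenerating muscle, by 0.71. Of the other members called, chosen after their values were seen, Myog, the transcription factor of myoblast differentiation, rose by 0.52, Ncam1, a surface protein of regenerating and denervated fibres, by 0.40, and Chrna1 and Chrng, subunits of the fetal acetylcholine receptor, by 0.60 and 0.51. The calls of Myog and Chrng were lost without all but array 1 of the injected Dysf-/- group (highest adjusted p 0.21 and 0.136). Pax7 and Myod1, which mark satellite cells and activated myoblasts, differed by -0.05 and 0.22 and did not pass the test. Of 29 cell cycle genes 27 differences were above 0 (median 0.128) but 0 were called in limma, with 9 higher and 0 lower at an unadjusted p below 0.05, led by Cdk1 (0.32, adjusted p = 0.117).

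The promoter of Chrna1 is printed since 4 of the 6 regeneration genes called higher that have a RefSeq window hold an E-box of the letters CAGCTG or CACCTG on either strand, the kind bound by myogenic factors such as Myog. The window lies at chr2:73580309-73580588 (minus strand, GRCm38.p6), and the 3 matches, in capitals, begin at positions -92, -73 and -44 from the start site and do not overlap.
Chrna1: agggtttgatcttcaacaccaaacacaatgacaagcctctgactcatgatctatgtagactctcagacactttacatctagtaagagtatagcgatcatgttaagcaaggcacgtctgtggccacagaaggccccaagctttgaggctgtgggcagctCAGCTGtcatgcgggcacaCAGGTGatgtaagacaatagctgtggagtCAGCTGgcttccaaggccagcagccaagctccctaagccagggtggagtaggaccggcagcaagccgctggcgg
These letters are common, with a match in the windows of 84 of 206 genes called higher (40.8%), of 33.5% of genes tested and of 30.8% of all windows. Chrna1 itself read 9.46, 9.58 and 9.81 in injected Dysf-/- arrays, against 9.13, 8.95 and 8.95 in injected wt arrays (adjusted p = 0.00364). Chrnb1, the β subunit of the same receptor and on no list, rose by 0.34, whereas Dok7, the cytoplasmic activator of the kinase that clusters the receptor, fell by 0.26 (adjusted p = 0.0253, at most 0.114 without a single array). Both were chosen after their values were seen.

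The metallothionein Mt2 showed the largest rise after that of A530032D15Rik, a gene of unknown function. The protein binds zinc and other metals, its gene is induced by metals, glucocorticoids and oxidative stress, and Mt2 read 9.89, 9.79 and 9.61 in injected Dysf-/- arrays, against 7.38, 8.14 and 7.24 in injected wt arrays. The Dysf-/- arrays were within 0.3 of each other, array 2 was the highest of the injected wt group, and the difference was 2.18 (SE 0.24, 4.52-fold, adjusted p = 0.000166). Its neighbour Mt1 gave 9.63, 9.45 and 9.57 in injected Dysf-/- and 8.22, 8.82 and 8.29 in injected wt arrays and rose by 1.11 (adjusted p = 0.0135, at most 0.0762 without a single array). The genes are paralogues, and whether probes of one bind the transcript of the other was not tested. In untreated mice Mt2 gave 9.91, 8.97 and 9.29 in Dysf-/- arrays and 8.31, 8.66 and 8.55 in wt arrays, a difference of 0.88 that did not pass the test (adjusted p = 0.146), and in F66 mice 10.38, 10.82 and 10.47 in F66;Dysf-/- arrays and 10.05, 10.51 and 10.37 in F66 arrays (0.25). The injected wt arrays were thus the lowest of the 6 groups for Mt2. The difference of the 2 dysferlin effects, injected minus untreated, was 1.30 (95% confidence interval 0.58 to 2.01, adjusted p = 0.512), which failed the correction over all genes. Of the other members of the list of atrophy, Foxo and ATF4 stress genes, Cdkn1a, an inhibitor of the cell cycle, rose by 0.66 (highest adjusted p without a single array 0.0936), and 27 of 30 did not pass (10% called, beside 1.91% of all genes tested).

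The windows of Mt2 and Mt1, which stand next to each other on the same strand of chromosome 8, are given because the pair moved together and metal response elements are their best known control sites. Capitals mark the core of that element, TGCACNC or TGCGCNC on either strand, and no match overlaps another. Mt2 (chr8:94172368-94172647, plus strand, GRCm38.p6) held 4 matches, at positions -223, -128, -50 and 5 from the start site, and Mt1 (chr8:94178839-94179118, plus strand) held 3, at -23, 3 and 21.
Mt2: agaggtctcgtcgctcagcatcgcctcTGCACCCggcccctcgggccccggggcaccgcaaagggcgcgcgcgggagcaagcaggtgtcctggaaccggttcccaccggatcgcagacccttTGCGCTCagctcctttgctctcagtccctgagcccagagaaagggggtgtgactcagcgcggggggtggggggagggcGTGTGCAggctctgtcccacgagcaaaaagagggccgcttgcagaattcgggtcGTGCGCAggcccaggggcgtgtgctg
Mt1: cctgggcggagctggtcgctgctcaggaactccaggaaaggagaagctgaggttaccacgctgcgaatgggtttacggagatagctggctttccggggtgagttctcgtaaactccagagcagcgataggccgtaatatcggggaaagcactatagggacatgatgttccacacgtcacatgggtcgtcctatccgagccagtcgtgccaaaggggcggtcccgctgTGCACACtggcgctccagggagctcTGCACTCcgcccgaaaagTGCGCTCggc
A single match is no rarity, being present in 24.1% of all 32851 windows, in the windows of 61 of 206 genes called higher (29.6%) and in those of 32.1% of genes tested.

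Among the proteins of membrane repair and the partners of dysferlin, 6 of 37 rose and 1, Dysf itself, fell (18.9% called, beside 1.91% of all genes tested). Anxa4, a calcium-dependent membrane-binding annexin, read 7.24, 7.21 and 7.08 in injected Dysf-/- arrays, against 6.71, 6.65 and 6.53 in injected wt arrays (difference 0.55, adjusted p = 0.00214). Anxa1 and Anxa2, annexins that associate with dysferlin at membrane tears, rose by 0.51 and 0.49. Myof, myoferlin, the closest relative of dysferlin and a protein of myoblast fusion, rose by 0.46, with 6.84, 7.02 and 7.13 in injected Dysf-/- and 6.50, 6.55 and 6.58 in injected wt arrays. The β-tubulin Tubb6 rose by 0.64 and the calcium-binding protein S100a4 by 0.47. Without single arrays the adjusted p rose to at most 0.142 for Anxa1, 0.0897 for Anxa2, 0.0594 for Myof and 0.115 for S100a4, which ended their calls, and the count of the list was 3 to 8. S100a10, the partner of Anxa2, gave a difference of 0.42 that did not pass (adjusted p = 0.108), and Capn3, a muscle calpain, one of -0.13 (adjusted p = 0.848). Annexins and S100 proteins are also made by leukocytes and fibroblasts, whose lists had 18 of 31 macrophage and 1 of 15 fibroblast genes called higher on these arrays, and the part of those cells was not tested.

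The list of the pathway that ACVR2B/Fc blocks held few calls. Of 51 measured genes of the myostatin and activin pathway, 1 rose and 1 fell (3.92%, beside 1.91% of all genes), with a median of 0.067. Mstn, the gene of myostatin, read 10.53, 10.40 and 10.36 in injected Dysf-/- arrays, against 10.95, 10.88 and 10.85 in injected wt arrays, and fell by 0.46 (SE 0.1, adjusted p = 0.0261). Wfikkn1, a secreted protein that binds myostatin, rose by 0.38 (adjusted p = 0.0429). Neither call held in the 6 injected arrays alone or when the F66 arrays were left out of the fit. Without single arrays the adjusted p was at most 0.113 for Mstn and 0.168 for Wfikkn1, with 0 to 4 members called. The ligands Gdf11, Inha and Inhba, of which Inha encodes the inhibin α subunit and Inhba the βA subunit of activin A, differed by -0.09, 0.09 and -0.02, and Tgfb1 by 0.21 (adjusted p = 0.0715). Of 19 genes of growth signalling, 1 rose, Igf2, and 2 fell (15.8% called, beside the same 1.91%). Pik3r1, the regulatory subunit of phosphoinositide 3-kinase, gave 7.45, 7.18 and 7.81 in injected Dysf-/- and 8.50, 8.49 and 8.18 in injected wt arrays (difference -0.91, adjusted p = 0.00679), and Sgk1, a kinase downstream of it, fell by 0.43 (highest adjusted p without a single array 0.088).

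Contractile genes of the fibre gave no calls, and genes of energy metabolism few. Of 21 muscle fibre genes 0 were called in limma, with 1 at an unadjusted p below 0.05, and their differences ran from -0.065 to 0.171. Of 11 slow fibre genes 0 were called, with 3 higher at an unadjusted p below 0.05, the first being Tpm3 (0.34, adjusted p = 0.165) and Tnni1 (0.32). Among 22 oxidative phosphorylation genes 21 differences were below 0 (median -0.08), but 0 were called, with 2 lower at an unadjusted p below 0.05. Ppargc1a, the coactivator that drives mitochondrial biogenesis, gave 7.59, 7.18 and 7.18 in injected Dysf-/- arrays and 7.78, 7.62 and 7.73 in injected wt arrays (adjusted p = 0.173). Of 24 genes of fatty acid oxidation and lipid handling 8.33% were called, beside 1.91% of all genes tested. Apoe, which macrophages secrete, rose by 0.62, and Slc25a20, the mitochondrial carnitine carrier, fell by 0.28 (adjusted p = 0.033, at most 0.152 without a single array). All 11 adipocyte genes were lower in the mean and 0 passed the test, with 2 at an unadjusted p below 0.05. Of the lists of glycolysis, dystrophin complex, endothelium, Schwann cells, blood, immediate early genes and the clock, 0 members were called. At an unadjusted p below 0.05 there were 4, 3, 4, 1, 1, 4 and 5, beside 2752 of all 20259 genes tested. In the immediate early list 17 of 20 differences were above 0 (median 0.173), with 4 higher and 0 lower at that p. Its means were 7.32 to 7.43 in injected Dysf-/- arrays and 7.07 to 7.26 in injected wt arrays, and 1 member was called on the 6 injected arrays alone. The glycolysis list held Nlk, matched through a synonym, in place of Gpi1. Genes that do not reach the threshold were not shown to be equal, since the median standard error of a difference was 0.0859.

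**Figure D3:**
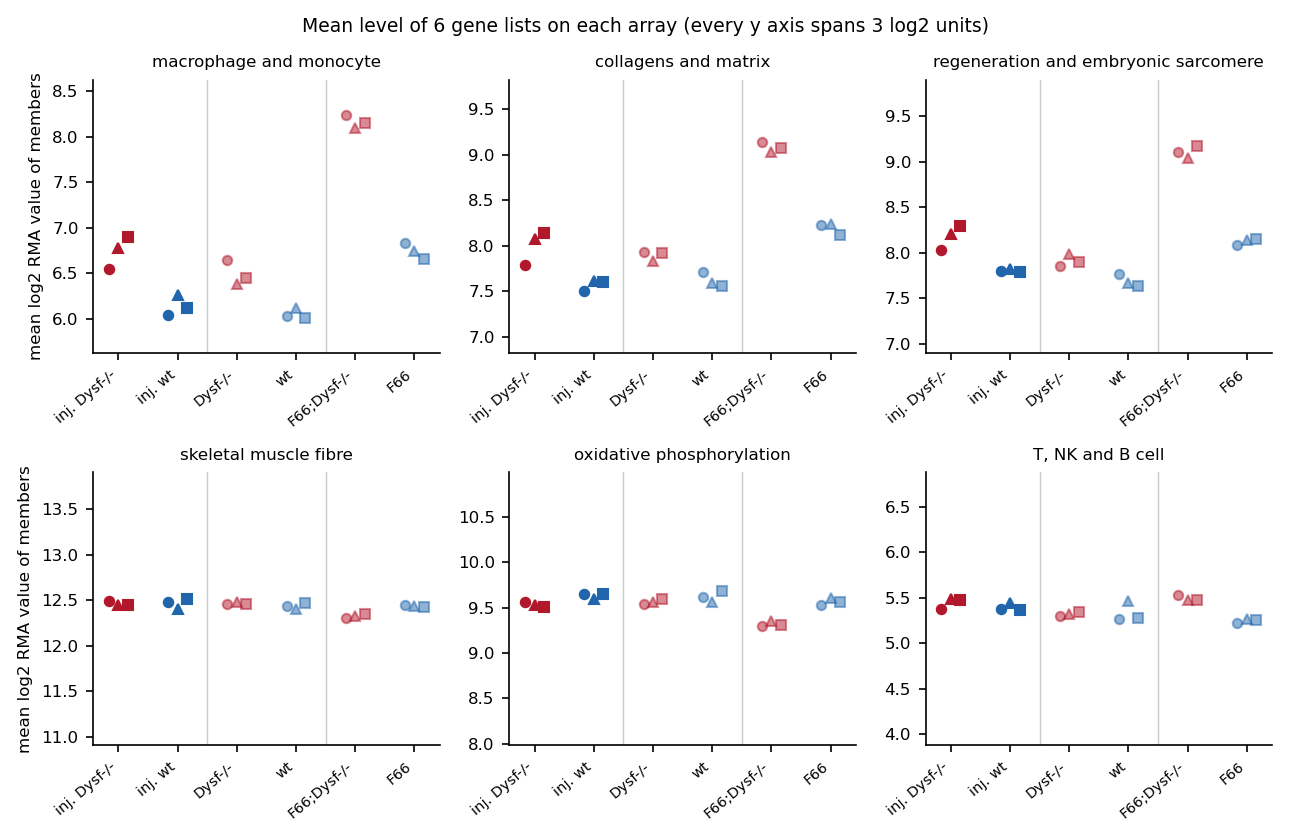
Mean log2 RMA value over the measured members of 6 gene lists on each array, with Dysf-/- groups in red left of their dysferlin-intact counterparts in blue; the injected pair is at the left, then the untreated and the F66 pair, circles, triangles and squares are arrays 1 to 3, and every axis spans 3 log2 units. The injected Dysf-/- arrays lie above the injected wt arrays for macrophage (6.55 to 6.90 against 6.04 to 6.26), matrix and regeneration genes, and the muscle fibre means overlap.

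Among the largest rises off the lists was Serpina3n, an inhibitor of serine proteases, which read 8.46, 7.81 and 8.15 in injected Dysf-/- arrays, against 6.80, 7.0 and 7.05 in injected wt arrays (difference 1.19, adjusted p = 0.000257). Fgl2, a membrane prothrombinase of macrophages and endothelium, gave 7.43, 7.49 and 7.85 in injected Dysf-/- arrays and 6.41, 6.42 and 6.38 in injected wt arrays and rose by 1.19. The groups lay apart for both, as for all 387 called genes. Of genes chosen after their values were seen, Slc11a1, a metal transporter of the phagosome, rose by 0.75, and Rrad, a small GTPase that restrains calcium channels, by 1.02, with 7.59, 7.31 and 7.29 in injected Dysf-/- and 6.46, 6.34 and 6.34 in injected wt arrays. Rps15a-ps2, a pseudogene of a ribosomal protein whose reading is uncertain because its parent gene shares its sequence, rose by 1.28, with 1.28 in untreated and 3.15 in F66 mice.

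Of the 118 genes that fell, 112 stood on none of the lists fixed for the comparison, and the same held for 189 of the 269 that rose. Inmt, indolethylamine N-methyltransferase, fell most, with 6.15, 6.33 and 6.65 in injected Dysf-/- arrays and 8.18, 8.66 and 8.13 in injected wt arrays (difference -1.95, SE 0.19, adjusted p = 5.59e-05). Nnt, the mitochondrial transhydrogenase that makes NADPH, read 7.04, 7.0 and 7.06 in injected Dysf-/- arrays, against 8.17, 8.02 and 8.17 in injected wt arrays, with less than 0.2 between the arrays of a group (difference -1.09, SE 0.079, adjusted p = 3.47e-06). In untreated mice Nnt differed by -1.03, but in the F66 pair, whose males came from the same matings, by -0.15 (adjusted p = 0.152), and the injected effect differed from the F66 effect by -0.94 (adjusted p = 5.37e-05). Part of Nnt is known to be deleted in the C57BL/6J substrain. The substrain of the mice is not given in the sources used here, so dysferlin loss and a difference between the lines of mice cannot be told apart for this gene. A530032D15Rik, a RIKEN gene on chromosome 1 with near-identical copies, so that its value is uncertain as that of a single gene, gave 9.85, 9.59 and 9.42 in injected Dysf-/- and 5.50, 6.09 and 6.16 in injected wt arrays, the largest rise (3.70), with 4.05 in untreated mice. Of 50 genes that flank Dysf on chromosome 6, 25 on each side, 1 fell, Tex261 (-0.25, adjusted p = 0.0282, at most 0.136 without a single array), a share of 2% beside 1.91% of all genes.

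The other large decreases belong to no list and are given gene by gene. Aqp4, the water channel of fast fibres, read 7.46, 7.48 and 7.51 in injected Dysf-/- arrays, against 7.97, 8.06 and 8.29 in injected wt arrays (difference -0.62, adjusted p = 0.00299). Pln, phospholamban, an inhibitor of the calcium pump of the sarcoplasmic reticulum, fell by 0.62, and Car14, a membrane-bound carbonic anhydrase, by 0.71. Tfrc, the transferrin receptor, gave 8.31, 8.05 and 8.23 in injected Dysf-/- and 9.03, 8.61 and 9.04 in injected wt arrays and fell by 0.69 (adjusted p = 0.0189), with -0.08 in untreated mice (difference of effects -0.62, 95% confidence interval -1.04 to -0.19, adjusted p = 0.585). Fmo2, a flavin monooxygenase, fell by 1.02 and spread widely among the injected Dysf-/- arrays, which read 7.13, 7.48 and 7.98, against 8.62, 8.64 and 8.38 in injected wt arrays. Mettl21e, a muscle methyltransferase, fell by 0.90, the phosphatase Cdc14a by 0.77, the ceramidase Acer2 by 0.73 and the polymerase subunit Rev3l by 0.72. Without single arrays the adjusted p rose to at most 0.106 for Mettl21e, 0.06 for Cdc14a, 0.112 for Rev3l, 0.0693 for Pln and 0.097 for Tfrc, which ended their calls.

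The comparison in untreated mice, Dysf-/- minus wt, shared no array with that in injected mice. It gave 99 calls (0.489%), 61 higher (0.301%) and 38 lower (0.188%), a split that became 66 and 26 after a second quantile normalisation. Of these, 66 were called in both comparisons, which is 17.1% of the calls in injected and 66.7% of the calls in untreated mice, and 65 of the 66 had one direction. Of the 269 genes higher in injected Dysf-/- muscle, 262 were also higher in the mean in untreated Dysf-/- muscle, and the median difference of these 269 was 0.459 in injected and 0.258 in untreated mice. The 269 were chosen by their size in injected mice, which raises the first of these medians. Taken from the other side, the 61 genes higher in untreated Dysf-/- muscle had a median of 0.747 in injected and 0.632 in untreated mice. The 118 genes lower in injected mice had a median of -0.362 in injected and -0.128 in untreated mice, and the 38 genes lower in untreated mice one of -0.259 in injected and -0.451 in untreated mice, so that for the falls each set was larger where it was chosen. Across all genes the 2 sets of differences correlated at r = 0.281, which is over genes of 2 sets of arrays and not over replicates.

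Whether the dysferlin effect itself differed between injected and untreated mice was tested directly, as the injected difference minus the untreated difference. Of 20259 genes, 1 passed (0.00494%), with 1570 at an unadjusted p below 0.05. This gene, C530025M11Rik, a transcript of unknown function, was higher in Dysf-/- muscle in injected mice (7.23, 7.29 and 7.12 in injected Dysf-/- arrays, against 6.72, 6.76 and 6.79 in injected wt arrays) and lower in untreated mice (6.66, 6.68 and 6.73 in Dysf-/- arrays, against 6.94, 7.14 and 7.29 in wt arrays), a difference of effects of 0.89 (95% confidence interval 0.66 to 1.12, adjusted p = 0.0129). The call was lost when the 6 F66 arrays were left out of the fit, when the mean of a gene's rows was used, and without arrays 1 or 2 of the injected wt group, array 1 of the injected Dysf-/- group, or array 2 of the untreated Dysf-/- or wt group. It was called in both comparisons, with opposite signs. None of the 321 genes called in injected but not in untreated mice passed this test, so they are not shown to respond differently. For the macrophage list, 18 members rose in injected and 9 in untreated mice, with medians of 0.556 and 0.428 and 0 members that passed for the difference. For the regeneration list the counts were 8 and 1 and the medians 0.304 and 0.19, and for the matrix list 15 and 2 with 0.366 and 0.257. For single genes the intervals were wide: Postn differed between the effects by 0.32 (95% confidence interval -0.06 to 0.69), Mpeg1 by 0.18 (-0.28 to 0.65) and Runx1 by 0.44 (0.22 to 0.67, adjusted p = 0.429).

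**Figure D4:**
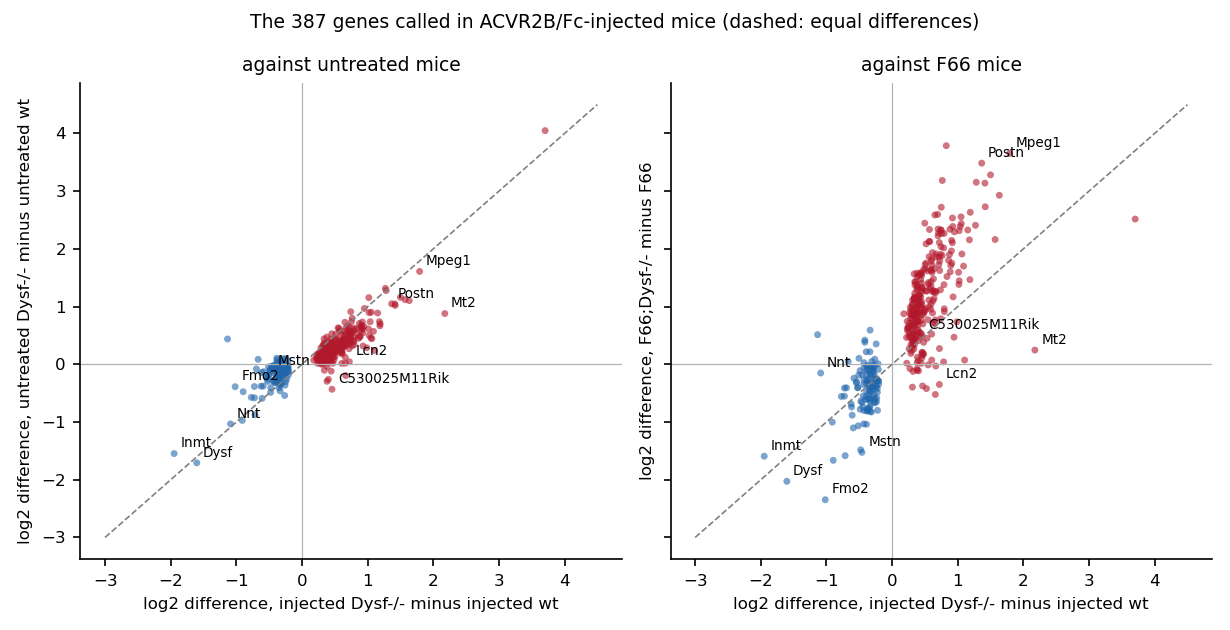
Log2 differences between Dysf-/- and dysferlin-intact muscle of the 387 genes called in ACVR2B/Fc-injected mice (x axes) against the same genes in untreated mice (left, y axis) and in F66 mice (right, y axis); red genes were called higher and blue genes lower in injected mice, and the dashed line marks equal differences. Most red genes lie below the line at the left (medians 0.459 injected and 0.258 untreated) and above it at the right (1.082 in F66), and Mt2 and Lcn2 lie below it in both.

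For 209 of the 387 genes the dysferlin effect was smaller under the injected inhibitor than under the follistatin transgene. In F66 mice, F66;Dysf-/- minus F66 gave 7034 calls (34.7%), 2930 higher (14.5%) and 4104 lower (20.3%), and the 269 genes higher in injected mice had a median of 0.459 in injected and 1.082 in F66 mice, with 243 of them called higher there. Tested directly, the injected effect minus the F66 effect passed for 3085 genes (15.2%), 1548 above (7.64%) and 1537 below 0 (7.59%), a split that became 909 and 1719 with each array centred on its median. Among the 387 genes, 244 differed between the effects, the 209 with a larger F66 effect of the same sign included. Mpeg1 differed by 1.79 in injected and 3.66 in F66 mice, Postn by 1.37 and 3.49, and Mymk by 1.42 and 3.14. Macrophage list means reached 6.55 to 6.90 in injected Dysf-/- arrays and 8.10 to 8.24 in F66;Dysf-/- arrays. The pairs differ in the agent, in the time for which it acted and in the matings of the mice, and these cannot be told apart.

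Of the 387 genes, 52 were not called in F66 mice and 10 were called there with the opposite sign. In each of the 10 the 2 effects differed by the direct test. Lcn2 differed by 0.72 in injected mice and by -0.35 in F66 mice (difference of effects 1.07, adjusted p = 0.000245), and S100a4 by 0.47 and -0.37 (difference of effects 0.84, adjusted p = 0.000943). Nmrk2, a kinase of nicotinamide riboside in muscle, differed by 0.66 in injected and by -0.52 in F66 mice (difference of effects 1.18, adjusted p = 0.000818). The call of Nmrk2 in injected mice was not examined without single arrays. Lcn2 in F66 mice read 5.81, 5.97 and 5.79 in F66;Dysf-/- arrays and 6.01, 6.27 and 6.34 in F66 arrays. Mt2 and Mt1, which rose by 2.18 and 1.11 in injected mice, differed by 0.25 and 0.07 in F66 mice (difference of effects 1.93 and 1.03, adjusted p = 0.0012 and 0.031). Dysf, Car14, Cd68, C3ar1 and Ctss were among 61 genes called with one sign in all 3 pairs, 49 of them higher and 12 lower in the Dysf-/- group.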

How the data were processed

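RNA of quadriceps muscle was hybridised to Affymetrix mouse exon arrays by the authors. The deposited values are log2 intensities per row of the array, made by the authors with RMA (background correction, quantile normalisation and summary of probes) in Partek, with mm9 as the build named in the submitters' notes; versions are not given in the sources used here. Spot intensities were not used, so the number of arrays limits the precision.

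Of 115830 rows, 25539 had 1 gene symbol in the platform annotation, 2300 several and 87991 none; each of 20259 genes was represented by its brightest row, on average over the 18 arrays (3109 had several rows). Groups came from the labels. Values were fitted with limma 3.58.1 in R 4.3.3, with 6 group means and no covariates (12 residual and 3.2 prior degrees of freedom), two-sided, with Benjamini-Hochberg adjustment over all genes and calls at 0.05. With 3 arrays against 3, a two-sided exact permutation test cannot go below 0.1, so none is given. On simulated data of 20259 genes, the injected comparison recovered 65.7%, 98.5% and 100% of those changed by 0.5, 1 and 2 (log2). Of its calls there, 5.38% were unchanged genes. Whether these shares hold for the arrays themselves, on which many genes moved together from array to array, was not tested.

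The comparison and the gene lists were chosen with earlier results of these data known. Lists are described by counts and medians, with no set test. Genes named are the 15 largest rises and falls among called genes whose arrays do not overlap, the 6 largest differences of effects, up to 4 members of each list with the smallest p, and 11 genes singled out by the study; others are defining markers of a list or are named as chosen after seeing their values, and most predicted genes were left unnamed. Of the 387 called genes, 295 had a RefSeq promoter window. Alternatives were other sets of arrays, rows, normalisations, priors and weights, a replicate block, Student's t-test (the methods' test) and leaving out each array.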

Additional observations from a re-analysis of the deposited data

Results flagged for a closer look

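The difference between Dysf-/- and dysferlin-intact muscle differed between settings, by the test of the difference itself, for 1 gene against untreated mice and for 3085 genes against F66 mice, of which the 6 largest are given. C530025M11Rik had a dysferlin effect of 0.46 in injected and -0.43 in untreated mice (difference 0.89, adjusted p = 0.0129); in F66 mice it was 0.51. Against F66 mice the 6 largest differences were negative, since the dysferlin effect was larger there. They were -3.25 for Sirpb1c, a signal-regulatory protein of myeloid cells (0.32 injected, 3.57 in F66), -2.96 for Mmp12 (0.83 and 3.79), -2.92 for the interleukin 7 receptor Il7r (0.60 and 3.52), -2.42 for C1qtnf3 (0.77 and 3.19), -2.32 for the chemokine Cxcl16 (0.51 and 2.82) and -2.12 for Postn (1.37 and 3.49), with adjusted p from 6.73e-07 for Mmp12 to 0.000285 for Sirpb1c. Of these, Sirpb1c, Il7r and Cxcl16 did not pass the test in injected mice. The call of C1qtnf3 in injected mice was lost without some single arrays (highest adjusted p 0.069).

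Rows with no gene in the platform annotation, which the comparison of genes leaves out, also differed. Fitted over all 115830 rows, 277 passed, and 168 of them had no gene listed, 146 higher and 22 lower in injected Dysf-/- muscle, which is 0.191% of the 87991 rows not listed, beside 0.392% of listed rows. Of the 168, 118 were called in the same direction in untreated mice and 83 of these also in F66 mice. The 146 rows had a median difference of 1.09 in injected and 1.16 in untreated mice, and 85 were higher by more than 2-fold, up to 5.74.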

How the results depend on the processing

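The number of genes that differed between the injected genotypes (387) was 65 on the 6 injected arrays alone and 187 on the 12 arrays without F66, 25 by the methods' t-test at its unadjusted threshold with a more than 2-fold difference, and 0 by that test after adjustment (2018 at an unadjusted p below 0.05). It stayed within 1.5 times under the other settings, apart from leaving out single arrays, which gave 169 (without array 2 of the injected Dysf-/- group) to 490 (without array 1 of that group). Without array 3 of that group it was 184, and without arrays 1, 2 and 3 of the injected wt group 183, 288 and 204. Fewer arrays in a fit leave fewer degrees of freedom. Blocking on the replicate number gave 390, of which 342 were among the 387. Correlations of deviations from the group means did not settle whether the numbers pair the arrays. Same-numbered injected arrays correlated at 0.188, 0.211 and 0.001. Arrays 1 and 2 of the injected Dysf-/- group correlated best with their own number, and array 3 did not. The values were 0.212, 0.293 and 0.039 between injected and untreated wt arrays of one number. They were 0.123, -0.067 and -0.007 between injected and untreated Dysf-/- arrays, and 0.044, 0.04 and -0.054 between untreated Dysf-/- and wt arrays. Of 111 named genes called, 108 kept their call with the block, 44 on the 6 arrays alone, 77 without F66 and 72 to 103 without single arrays. None of the 111 turned in direction under any setting run. The difference of effects from untreated mice (1 gene) was 0 on the groups alone, without F66, over all rows, with the mean of a gene's rows and by the ordinary linear model after adjustment, with 1238, 1238, 7472 and 1561 at an unadjusted p below 0.05 in the first 4. It was 2 with the block, 7 by that model at the methods' threshold, and 0 to 3 without single arrays. The difference from F66 mice (3085) was 1719 over all rows, 247 by the ordinary linear model at the methods' threshold, 3319 with the block and 2194 to 2891 without single arrays. The untreated comparison (99) was 29 on its 6 arrays, 50 without F66, 266 over all rows, 19 by the methods' t-test, 0 by it after adjustment, 103 with the block and 31 to 86 without single arrays, and quantile normalisation again turned its split of 61 and 38 into 66 and 26. Only genes not called changed sign, each by a small log2 difference. With the mean of a gene's rows, Tpsb2 was 0.0767 and Dmd 0.0622. With array weights, Inhba was 0.0517. Without single arrays the difference ran from -0.016 to 0.2694 for Myl1, -0.1643 to 0.04 for Cma1, -0.0274 to 0.0765 for Slc4a1, -0.0876 to 0.0517 for Alas2, -0.0483 to 0.189 for Inha and -0.2345 to 0.1917 for Inhba. Each group held 3 arrays, and 25.7% of genes lay below the median of all rows; without these genes the count was 452.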

Other observations

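Genes of branched-chain amino acid breakdown, a mitochondrial pathway by which muscle burns leucine, isoleucine and valine, held 7 of the falls in injected Dysf-/- muscle. Of 28 measured genes of a textbook list, 7 fell (0.582% of all genes tested did), 0 rose and 21 did not pass, and 27 differences were below 0 (48.1% of all genes tested), with a median of -0.18 in injected, -0.14 in untreated and -0.44 in F66 mice. Aldh6a1, which acts in valine breakdown, read 8.50, 8.52 and 8.64 in injected Dysf-/- arrays, against 8.93, 8.83 and 8.93 in injected wt arrays (difference -0.35, adjusted p = 0.00679). Acadsb, the acyl-CoA dehydrogenase of the isoleucine branch, fell by 0.35, Mccc2 and Auh of the leucine branch by 0.32 and 0.23, and Pcca and Mmut, which carry propionyl-CoA towards succinyl-CoA, by 0.34 and 0.28. Ivd, isovaleryl-CoA dehydrogenase, fell by 0.26 in injected mice and differed by -0.36 in untreated mice (adjusted p = 0.0166). The list was assembled after the values were seen, and no test of it was made. Of the 7 calls, that of Aldh6a1 alone held without any one of the injected arrays, the highest adjusted p of the others being 0.0568 for Acadsb to 0.21 for Pcca.

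Some innate receptors off the lists rose too. Of 20 Toll-like receptors and accessory proteins, a list likewise assembled afterwards, 6 rose (1.33% of all genes tested did) and 0 fell. The receptors of nucleic acids in endosomes Tlr7, Tlr8 and Tlr13 rose by 0.74, 0.79 and 0.88, and Unc93b1, which carries them to the endosome, by 0.44. Ly86 and Cd180, which form one surface complex, rose by 0.92 and 0.65. Tlr13 read 5.41, 5.85 and 6.00 in injected Dysf-/- arrays, against 4.88, 4.89 and 4.84 in injected wt arrays. Of 17 genes of the Ms4a family 4 rose, Ms4a6d most (1.04), and of 8 of the Cd300 family 3 rose, Cd300lb most (1.05). Members of both families share sequence, so their values are uncertain as single genes. Ptprc, the pan-leukocyte antigen CD45, rose by 0.75, with 5.64, 5.73 and 5.80 in injected Dysf-/- and 5.06, 4.96 and 4.92 in injected wt arrays. All were chosen after their values were seen, and the calls of Cd180 and Cd300lb were lost without some single arrays (highest adjusted p 0.119 and 0.105).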
